A study of Homo sapiens with 12 samples.

Results

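The 10 genes described here encode S100 calcium-binding proteins, namely S100A2, S100A4, S100A6, S100A8, S100A9, S100A10, S100A11, S100A14, S100A16 and S100P. They were taken by symbol from a table of 23346 genes measured by RNA-seq, and the list was chosen with earlier results of these data known. All 10 were found in the table. RNA came from SW1990 and CFPAC-1, both established human pancreatic adenocarcinoma cell lines, after sorting with GCTM-5, an antibody to a glycoconjugate antigen on the cell surface. Each line gave 3 samples of GCTM-5 negative and 3 of GCTM-5 positive cells, for 12 samples in 4 groups. The comparison asked how cells of one line that display the antigen differ from those that do not, and whether both lines differ in the same way.

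All 4 groups were grown as monolayers with fetal bovine serum, and the labels name no engineered allele and no drug for any of them. The labels name SW1990 (also written SW-1990) and CFPAC-1 with GCTM-5 status as the sole difference within a line, and state that the gates took the clearly positive and clearly negative cells alone. The labels name Iscove's medium and a SureSelect strand-specific kit, whereas the study's methods name RPMI medium and a TruSeq kit. Each group is a sorted population of 1 cell line rather than of a tumour, and the samples were repeat sorts of that line, so p-values measure the spread between sorts. Cells of intermediate staining were not analysed here.

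S100 proteins are small proteins with a pair of EF-hand calcium-binding loops, and most act as dimers that bind target proteins when calcium rises. Inside cells they bind annexins, myosin and cytoskeletal linkers. Several are also released and bind receptors such as RAGE (encoded by AGER) and TLR4. In the pancreas several members are known for higher levels in ductal adenocarcinoma than in normal ducts, and S100P, S100A4 and S100A6 have long been studied as markers of this tumour. S100A8 and S100A9 form calprotectin, best known from neutrophils and monocytes and also made by stressed squamous epithelium.

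Of the 10 genes, 9 lie on chromosome 1, most in the S100 cluster, and S100P lies apart on chromosome 4, at chr4:6695605-6698897 in GRCh37, the build of the files. From S100A9 to S100A14 the cluster holds 7 of the 10 genes within 259 kb. S100A16 (chr1:153579362-153585621) and S100A14 (chr1:153586731-153589462) are neighbours on the minus strand, 1109 bp apart. S100A6 (chr1:153507075-153508720) and S100A4 (chr1:153516089-153522612) are 7368 bp apart, and S100A9 (chr1:153330330-153333499, plus strand) lies 29.0 kb from S100A8. S100A10 (chr1:151955391-151966335) and S100A11 (chr1:152004982-152020383) sit outside this core.

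The 250 bases upstream of the start sites of 4 members are given because their transcripts behaved most differently: S100A14 and S100A9 had the largest changes with the sort, S100A4 had the largest gap between lines, and S100A10 was among the most even. The sequences are RefSeq's for GRCh38.p14, 5′ to 3′ on the strand of the gene. They are chr1:153616326-153616575 for S100A14, chr1:153357604-153357853 for S100A9, chr1:153545807-153546056 for S100A4 and chr1:151993860-151994109 for S100A10. Capitals mark matches, on either strand, to any of 5 motifs: the TATA box TATAAA, the AP-1 motif TGANTCA, the E-box CACCTG, the grainyhead-type motif AACNNGTT and the CCAAT box.
S100A14: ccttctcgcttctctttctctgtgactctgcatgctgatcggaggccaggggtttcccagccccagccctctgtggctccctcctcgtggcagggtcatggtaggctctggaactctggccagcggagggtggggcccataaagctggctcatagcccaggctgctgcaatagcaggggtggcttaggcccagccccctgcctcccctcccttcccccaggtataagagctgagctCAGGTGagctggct
S100A9: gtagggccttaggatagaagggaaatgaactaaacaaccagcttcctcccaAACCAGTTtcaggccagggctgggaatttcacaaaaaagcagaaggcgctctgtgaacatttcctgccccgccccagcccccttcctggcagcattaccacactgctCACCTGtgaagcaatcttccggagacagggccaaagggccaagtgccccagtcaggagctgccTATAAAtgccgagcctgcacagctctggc
S100A4: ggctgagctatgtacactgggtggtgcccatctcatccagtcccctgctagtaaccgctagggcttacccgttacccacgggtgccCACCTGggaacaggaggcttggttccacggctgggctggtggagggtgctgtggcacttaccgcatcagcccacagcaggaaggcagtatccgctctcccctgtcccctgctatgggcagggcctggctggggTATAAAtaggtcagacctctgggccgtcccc
S100A10: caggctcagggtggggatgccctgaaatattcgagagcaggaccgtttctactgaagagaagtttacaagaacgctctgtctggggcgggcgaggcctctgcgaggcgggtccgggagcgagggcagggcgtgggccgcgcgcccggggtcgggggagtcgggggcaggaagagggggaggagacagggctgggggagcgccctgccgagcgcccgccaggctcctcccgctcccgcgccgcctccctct

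TATAAA stood 29 bases upstream of the S100A9 start and 31 bases upstream of the S100A4 start. It was present in 10.7% of the 35116 human promoters of this length. CACCTG was present upstream of S100A9 and S100A4 and, on the strand opposite to the gene (printed as CAGGTG), of S100A14, and in 9 of the 14 windows that RefSeq gives for the 10 members, against 17.5% of all promoters. Several windows of 1 gene overlap, so these are not separate observations. AACNNGTT was found among these 4 windows upstream of S100A9 (3.00% of all promoters hold it). No motif was found upstream of S100A10, where CpG was frequent. The S100A10 window held 24 CpG, that of S100A6 24 and that of S100A11 15, beside a median of 11 over all promoters. The windows of S100A14, S100A9 and S100P held 4 each and that of S100A4 held 7. Those of S100A16, abundant in every sample, held 1 and 6, those of S100A2 held 4 and 3, and those of S100A8 held 2 each. Of all promoters, 38.1% held at most 5. These are matches of letters, and no binding was measured here.

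Levels are given as RPKM, reads divided by the length of the gene and the size of the library, as deposited. The library totals recovered from the values ranged from 9969697 to 26159330 reads. The smallest library was CFPAC-1 positive replicate 3, which also stood farthest from its group: its genes deviated from the group mean by 0.423 (root mean square, log2), against 0.258 to 0.337 in the other samples. Results are therefore given without it where it matters. FUT3, which encodes a fucosyltransferase of Lewis antigen synthesis and served as a check of the sort, was higher in positive cells of both lines, by 4.67 (log2) in SW1990 and 3.01 in CFPAC-1. The study had already reported higher FUT3 in positive cells from these same data, so this check is not independent. Of the epithelial marker genes CDH1, EPCAM, KRT7, KRT8, KRT18 and KRT19, none was at 0 in any group.

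Together the 10 transcripts summed to between 2542 and 3083 RPKM in negative SW1990 cells and to between 4030 and 4639 RPKM in positive SW1990 cells. In CFPAC-1 the sums were 4105 to 4422 RPKM for negative cells and 3241 to 4471 RPKM for positive ones. The highest positive sum was that of replicate 3, the smallest library. The other positive samples, at 3241 and 3741 RPKM, lay below every negative CFPAC-1 sample. Negative SW1990 cells were thus the group with the lowest sums, with no overlap with the other 3 groups. S100A6 was the most abundant member in every group and ranked between 7 and 33 among all genes by mean RPKM. It made up 25.4% and 24.1% of the summed level in negative and positive SW1990 cells, and 49.4% and 45.9% in the corresponding CFPAC-1 cells. S100A4 made up 20.2% and 16.2% in SW1990 and 0.146% and 0.143% in CFPAC-1. S100A11 held a similar share in all 4 groups, from 20.6% to 22.8%.

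**Figure D1:**
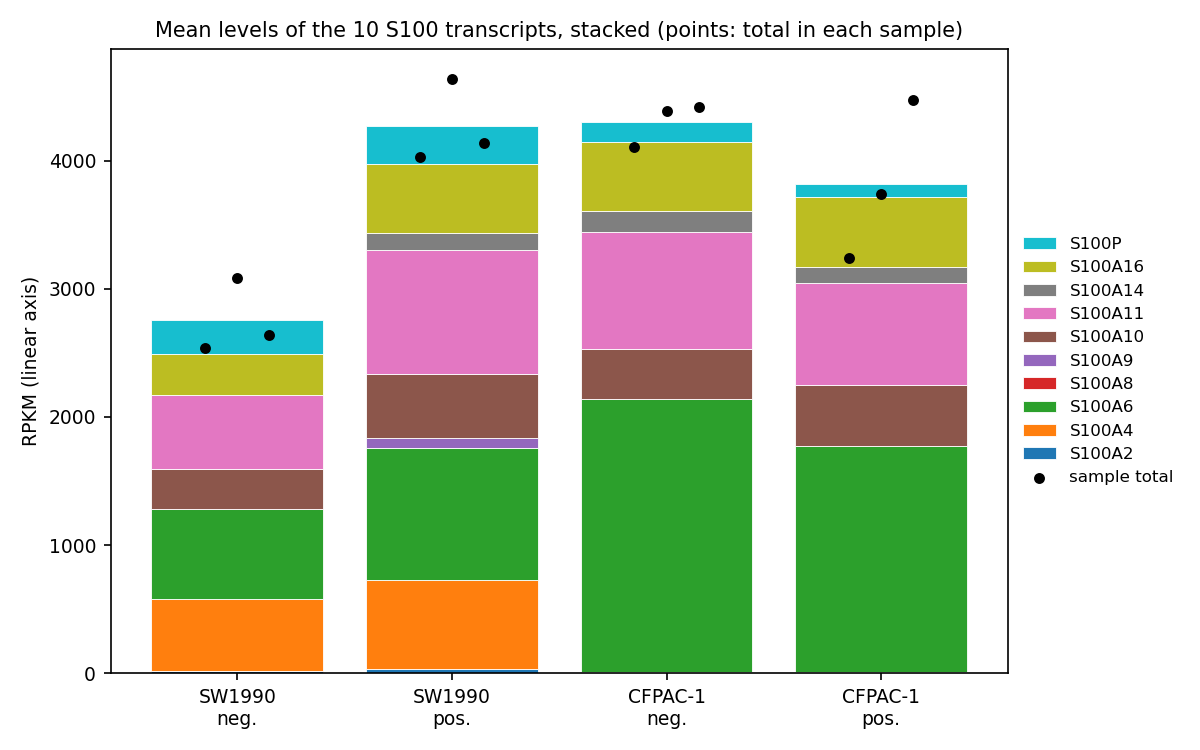
Mean RPKM of the 10 S100 transcripts stacked for each of the 4 groups on a linear axis, with points for the total in each sample (n = 3). The stack was lowest in negative SW1990 cells, and the S100A4 layer was visible in SW1990 alone, where its mean was 557 and 692 RPKM against 6.30 and 5.51 in CFPAC-1.

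**Figure D2:**
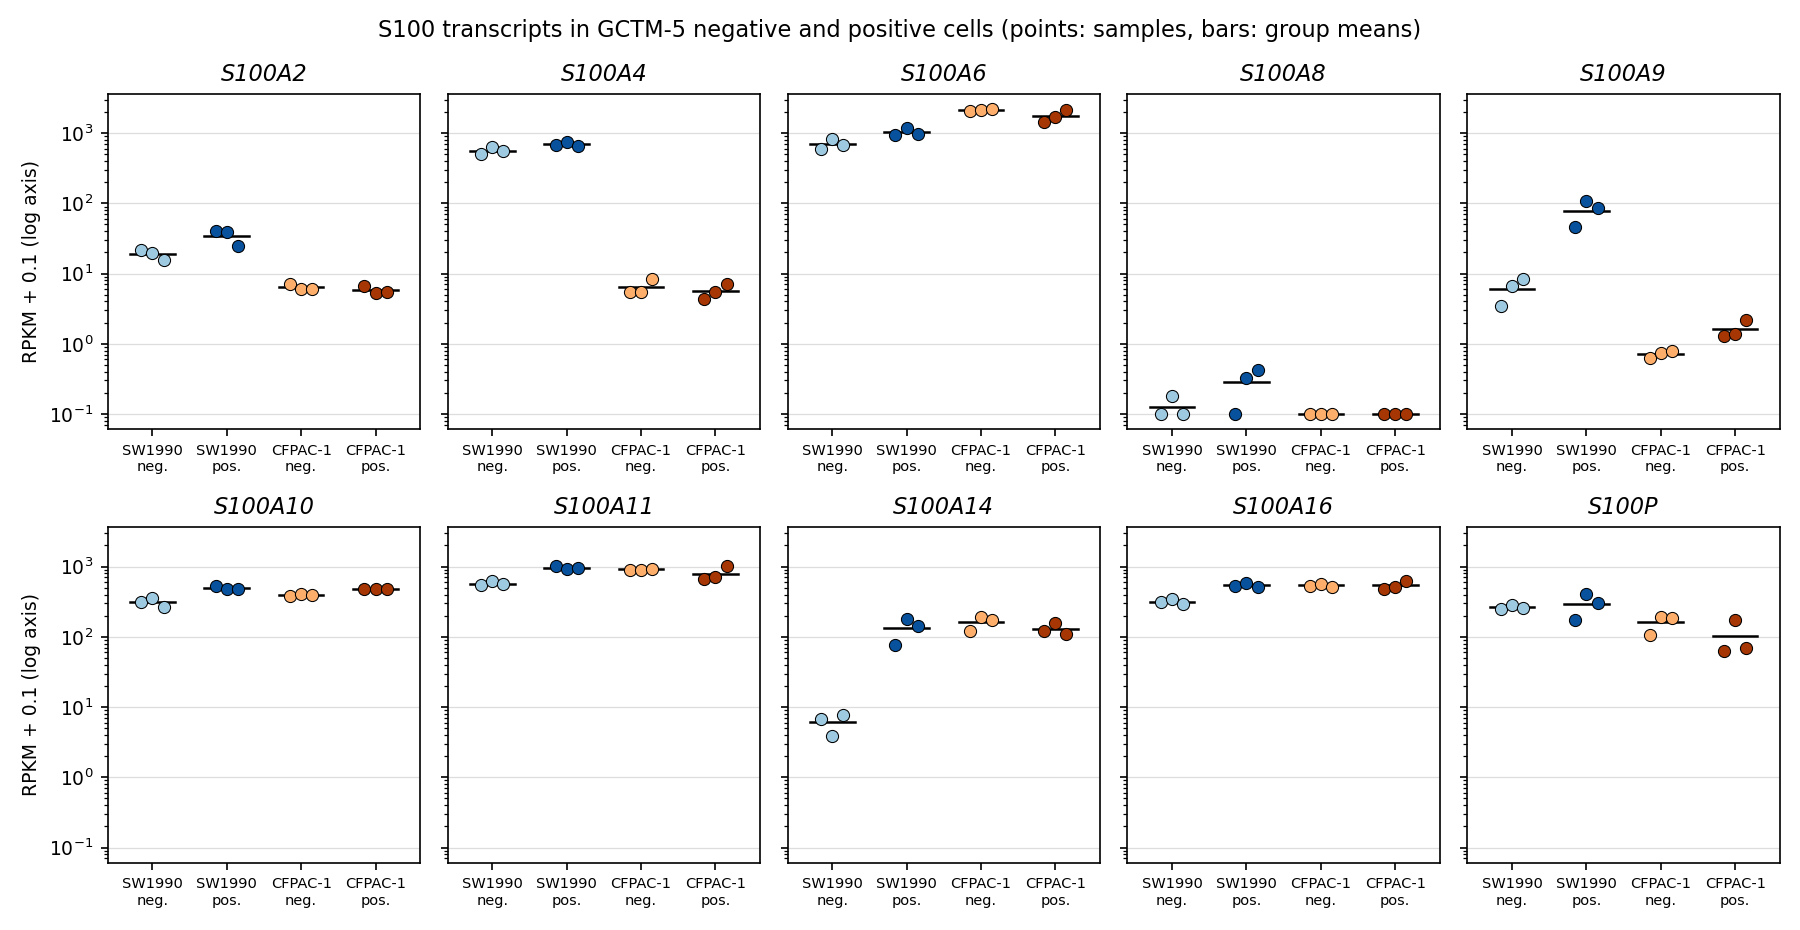
RPKM plus 0.1 of each S100 transcript (log axis) in every sample, with a bar at the mean of each group (n = 3). S100A14 and S100A9 were separated most between the sorted populations of SW1990, S100A4 between the lines, and S100A8 lay at or near 0 in all 12 samples.

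In SW1990, positive cells had higher levels of 7 members than negative cells, and no member was lower. S100A14 differed most, at 22.3 times the mean level of negative cells, followed by S100A9 at 13.1 times. S100A2, S100A16, S100A11, S100A10 and S100A6 rose by smaller factors, from 1.47 to 1.84 times. S100A4 and S100P did not pass the test. A member is called higher or lower at a Benjamini-Hochberg adjusted p under 0.05 from limma, fitted on the log2 of RPKM plus 0.1 over 16236 genes with a mean of at least 0.1 RPKM. Of the 10 members 9 passed that filter, all but S100A8. At this threshold 11.3% of all genes fitted were higher in positive SW1990 cells and 16.9% were lower. The median change of the 9 members was 0.76 (log2) and that of all genes was -0.04. None was lower at an unadjusted p under 0.05 or by voom on recovered reads. In such bulk samples a change in the share of cells that express a gene and a change in RNA per cell cannot be told apart.

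S100A14, a member expressed mainly in epithelia, measured 6.56, 3.77 and 7.52 RPKM in the 3 samples of negative SW1990 cells. In positive cells it measured 77.5, 177 and 144 RPKM. The lowest positive sample was thus far above the highest negative one. The log2 change was 4.43 (SE 0.31, adjusted p = 1.04e-06 by limma). Among all genes by mean RPKM it stood at rank 8748 in negative cells and at rank 374 in positive cells. Behind these values were 93 to 143 reads in a negative sample and 1594 to 3177 in a positive one.

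S100A9, the calprotectin subunit, measured 3.37, 6.55 and 8.13 RPKM in negative SW1990 cells. In positive cells it measured 45.7, 106 and 84.5 RPKM. The groups did not overlap, and the log2 change was 3.69 (SE 0.35, limma adjusted p = 1.01e-05). S100A8, its calprotectin partner, did not accompany it at this depth. S100A8 measured 0, 0.0821 and 0 RPKM in negative and 0, 0.225 and 0.324 RPKM in positive SW1990 cells, which are at most 3 reads in a sample. No fold is given for S100A8 because both groups were at or under a floor of 3 reads per library. Over the 3 positive SW1990 samples S100A9 had 2414 reads and S100A8 had 5, and over the negative samples they had 211 and 1.

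S100A16, whose gene adjoins that of S100A14, was abundant in every sample. It measured 314, 343 and 296 RPKM in negative and 523, 578 and 518 RPKM in positive SW1990 cells. The groups did not overlap, with a log2 change of 0.76 (SE 0.11, limma adjusted p = 0.000305). The ratio of S100A14 to S100A16, both in RPKM, was 0.0191 ± 0.00736 (SD, n = 3) in negative and 0.244 ± 0.0840 in positive SW1990 cells, so the neighbours changed by unequal factors.

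The annexin-binding members rose to a similar degree. S100A10, also called p11, which binds ANXA2 without needing calcium, measured 314, 353 and 268 RPKM in negative and 524, 483 and 485 RPKM in positive SW1990 cells. S100A11, which binds ANXA1, measured 546, 614 and 557 RPKM in negative and 1027, 926 and 948 RPKM in positive cells. Neither pair of groups overlapped. The log2 change was 0.68 (SE 0.10, limma adjusted p = 0.000365) for S100A10 and 0.76 (SE 0.15, limma adjusted p = 0.00202) for S100A11. The annotation lists 8 pseudogenes of S100A11 and the table lists 0 of them. How reads that match several places were treated is not given in the sources used here, so the level of S100A11 is uncertain.

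S100A2, a nuclear member of basal epithelia, measured 21.5, 19.4 and 15.5 RPKM in negative and 40.8, 38.4 and 24.5 RPKM in positive SW1990 cells. The groups did not overlap, though the third positive sample lay close to the highest negative one, and the log2 change was 0.85 (SE 0.19, limma adjusted p = 0.00521). S100A6, also called calcyclin, measured 592, 837 and 678 RPKM in negative and 951, 1182 and 966 RPKM in positive cells. The groups did not overlap, with a log2 change of 0.56 (SE 0.17, limma adjusted p = 0.0281). This call was the least firm of the 7. It was lost without negative replicate 1 (log2 change 0.45, limma adjusted p = 0.108), without negative replicate 3 (0.55, adjusted p = 0.0805), without positive replicate 2 (0.46, adjusted p = 0.102) and without positive replicate 3 (0.61, adjusted p = 0.0534). The call was also lost when SW1990 was fitted alone (limma adjusted p = 0.0740) and with no filter on low values (adjusted p = 0.0514).

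S100A4, known as metastasin and as a partner of non-muscle myosin, measured 496, 626 and 549.7 RPKM in negative and 666, 746 and 663 RPKM in positive SW1990 cells. The samples did not overlap, but the log2 difference of 0.32 (95% confidence interval -0.10 to 0.73) did not pass the test (limma adjusted p = 0.250). With voom on the recovered reads it did (adjusted p = 0.0367). S100P, a secreted member prominent in pancreatic cancer, measured 248, 279.9 and 258 RPKM in negative and 175, 401 and 303 RPKM in positive cells. The positive samples spread around the negative ones, and the log2 difference was 0.08 (interval -0.75 to 0.92, limma adjusted p = 0.914). Without positive replicate 2 it was -0.18. Including S100A4, 8 members had higher values in every positive sample than in any negative sample, as did 17.9% of all genes fitted, and 25.4% were lower in the same sense.

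Other gene groups also moved with the SW1990 sort. The 6 epithelial markers summed to between 1595 and 1942 RPKM in negative and between 4360 and 4841 RPKM in positive cells. All but KRT7 were called higher, beside 11.3% of all genes. The 10 fibroblast markers summed to between 14.2 and 24.9 RPKM in negative and between 4.96 and 6.40 RPKM in positive cells. Of these, 4 passed the filter and 3 were lower (COL1A1, LUM and PDGFRB), beside 16.9% of all genes. THY1 was at 0 in all samples. DCN and COL3A1 were at 0 in positive cells, and a negative sample held at most 1 and 2 reads of them, under the floor of 3 reads. Of 8 myeloid markers, listed because calprotectin is abundant in such cells, MPO and CEACAM8 were at 0 in both SW1990 groups. The myeloid sum was 2.09 to 3.25 RPKM in negative and 1.11 to 2.28 RPKM in positive cells. Of the 2 that passed the filter, CD14 was lower in positive cells (mean 1.47 RPKM in negative, 0.287 in positive) and LYZ was not called. The part of these markers in the S100 differences was not tested.

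In CFPAC-1 the same sort was accompanied by higher levels of 2 members, S100A9 and S100A10, and by lower levels of none. Among all genes fitted, 22.3% were higher and 14.2% lower in positive CFPAC-1 cells. The median change of the 9 members was -0.19 (log2) and that of all genes was 0.05. S100A14, which differed most in SW1990, was high in both CFPAC-1 populations and overlapped between them. None of the members was lower at an unadjusted p under 0.05 or by voom.

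S100A9 measured 0.534, 0.634 and 0.695 RPKM in negative and 1.19, 1.29 and 2.09 RPKM in positive CFPAC-1 cells. The groups did not overlap, but behind these values were 6 to 8 reads in a negative sample and 12 to 18 in a positive one. The log2 change was 1.14 (SE 0.35, limma adjusted p = 0.0249). It was lost without positive replicate 3 (0.90, adjusted p = 0.0868), without negative replicate 1 (1.05, adjusted p = 0.0748), without negative replicate 2 (1.15, adjusted p = 0.0596), with a pseudocount of 1 (0.62, adjusted p = 0.130) and with voom (adjusted p = 0.364). S100A8 had 0 reads in all 6 CFPAC-1 samples. A floor of 3 reads in the library was 0.220 RPKM of S100A8 in the deepest of these samples and 0.576 RPKM in the shallowest.

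S100A10 measured 377, 406 and 398 RPKM in negative and 474, 477 and 487 RPKM in positive CFPAC-1 cells. The groups did not overlap, as was the case for these 2 members and for 28.1% of all genes in the higher direction and 20.4% in the lower. The log2 change was 0.28 (SE 0.10) and lay just past the threshold (limma adjusted p = 0.0488). The change kept its direction in all 22 alternatives but passed the threshold in 7 of them, with adjusted p from 0.0169 to 0.268. Leaving out any one CFPAC-1 sample ended the call: the change was 0.25, 0.31 and 0.29 without negative replicates 1, 2 and 3, and 0.29, 0.29 and 0.27 without positive replicates 1, 2 and 3, with adjusted p from 0.0793 to 0.134. It also ended without any one positive SW1990 sample or negative SW1990 replicate 1, which leave the change at 0.28 and alter the shared spread (adjusted p 0.0529 to 0.0682).

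S100A14 measured 122, 192 and 175 RPKM in negative and 119.9, 157 and 111 RPKM in positive CFPAC-1 cells. The log2 difference was -0.33 (interval -1.01 to 0.36, limma adjusted p = 0.444), and the groups overlapped. S100A16 measured 532, 569 and 511 RPKM in negative and 487, 512 and 630.5 RPKM in positive cells, a difference of 0.01 (interval -0.24 to 0.25). Its sign was not settled, since it was -0.11 without positive replicate 3, -0.03 without negative replicate 3 and -0.09 with samples centred on their medians. The ratio of S100A14 to S100A16 in CFPAC-1 was 0.303 ± 0.0642 (SD, n = 3) for negative cells and 0.243 ± 0.0656 for positive ones.

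S100A11 measured 905, 908 and 918 RPKM in negative and 656, 705 and 1011 RPKM in positive CFPAC-1 cells. The negative samples agreed within a narrow range, and positive replicate 3, the sample that stood apart, was above them while the other two were below. The log2 difference was -0.23 (interval -0.55 to 0.09, limma adjusted p = 0.240), and without that sample S100A11 was lower in positive cells by the test (log2 change -0.42, adjusted p = 0.00762). S100A6 measured 2049, 2111 and 2218 RPKM in negative and 1429.9, 1704 and 2147 RPKM in positive cells. Again positive replicate 3 was the highest of its group, and the log2 difference was -0.29 (interval -0.67 to 0.08, limma adjusted p = 0.206), or -0.45 (adjusted p = 0.0562) without it.

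S100P measured 106, 188 and 186 RPKM in negative and 62.8, 175 and 70.2 RPKM in positive CFPAC-1 cells. Positive replicate 2 lay within the negative group, and the other two positive samples lay below it. The log2 difference was -0.75 (interval -1.59 to 0.08, limma adjusted p = 0.145). Without positive replicate 2 it was -1.22 and passed the test (adjusted p = 0.0131). S100A2 measured 7.10, 5.89 and 5.84 RPKM in negative and 6.52, 5.15 and 5.32 RPKM in positive cells, a difference of -0.15 (interval -0.56 to 0.27). S100A4 measured 5.28, 5.43 and 8.18 RPKM in negative and 4.20, 5.38 and 6.94 RPKM in positive cells, a difference of -0.19 (interval -0.60 to 0.22), or 0.01 without negative replicate 3. Both overlapped between the sorted populations.

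In CFPAC-1 the epithelial sum was 5411 to 6173 RPKM in negative and 6676 to 8162 RPKM in positive cells. Of the 6 genes, 3 were called higher (KRT7, KRT8 and KRT18), beside 22.3% of all genes higher and 14.2% lower. The fibroblast sum was 2.99 to 3.17 RPKM in negative and 2.92 to 3.51 RPKM in positive cells, and 0 of its 4 fitted genes were called. The myeloid sum was 52.3 to 86.6 RPKM in negative and 53.9 to 65.7 RPKM in positive cells and was carried by LYZ and CD14, while FCGR3B was at 0 in both groups and PTPRC was at 0 in negative cells. Of the 2 myeloid markers that passed the filter, CD14 was lower in positive CFPAC-1 cells (mean 9.23 RPKM in negative, 3.19 in positive) and LYZ was not called. The part of these markers in the S100 values was not tested.

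**Figure D3:**
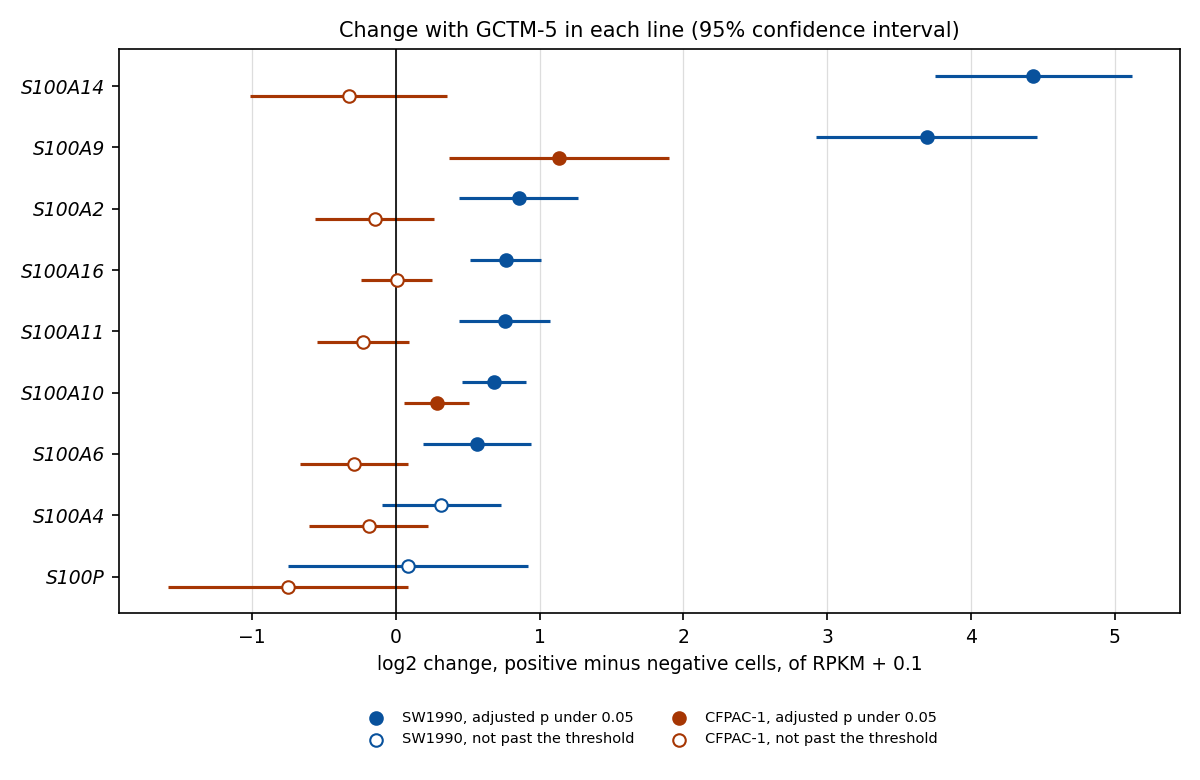
Log2 change from GCTM-5 negative to positive cells, on RPKM plus 0.1, for the 9 members fitted in SW1990 (blue) and CFPAC-1 (brown), with 95% confidence intervals from limma (n = 3 samples per group). Filled points had an adjusted p under 0.05: 7 members in SW1990, led by S100A14 at 4.43 and S100A9 at 3.69, and 2 in CFPAC-1, S100A9 at 1.14 and S100A10 at 0.28.

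The change was tested against that of the other line directly. It was more positive in SW1990 than in CFPAC-1 for 6 members and less positive for none, beside 9.16% and 17.8% of all genes. The difference in log2 change was 4.76 for S100A14 (SE 0.44, limma adjusted p = 2.33e-05) and 2.56 for S100A9 (SE 0.50, limma adjusted p = 0.00276). It was 1.00 for S100A2 (adjusted p = 0.0169), 0.99 for S100A11 (adjusted p = 0.00426), 0.86 for S100A6 (adjusted p = 0.0217) and 0.76 for S100A16 (adjusted p = 0.00456), all by limma. The median over the 9 members was 0.86 and over all genes -0.15. No member was less positive at an unadjusted p under 0.05 or by voom.

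S100A10 (0.40, interval 0.08 to 0.72, adjusted p = 0.0639), S100A4 (0.51, interval -0.08 to 1.09, adjusted p = 0.185) and S100P (0.84, interval -0.35 to 2.02, adjusted p = 0.281) did not pass this test of limma. Single samples mattered for 3 of these results. S100P passed without CFPAC-1 positive replicate 2 (1.30, adjusted p = 0.0436) and S100A10 without SW1990 negative replicate 2 (0.49, adjusted p = 0.0246). S100A6 no longer passed without SW1990 negative replicate 1 (0.74, adjusted p = 0.0559), SW1990 positive replicate 2 (0.76, adjusted p = 0.0551) or CFPAC-1 negative replicate 3 (0.83, adjusted p = 0.0532). With voom, S100A9 (adjusted p = 0.0751) and S100A2 (adjusted p = 0.0511) fell short and S100A10 passed (adjusted p = 0.0432).

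At thresholds of over 2-fold and p under 0.01, which the study names and which were applied here to the unadjusted p, S100A14 and S100A9 were higher in positive SW1990 cells, as were 4.59% of all genes, and no member was lower, beside 7.48%. S100A9 alone of the members was higher in positive CFPAC-1 cells, as were 5.65% of all genes, and none was lower, beside 4.13%. The difference between lines met these thresholds for S100A14, S100A9 and S100A2, beside 5.33% of all genes in the same direction and 8.84% in the other.

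The lines were also compared with each other within each sorted population. In negative cells 3 members were higher in SW1990 (S100A4, S100A9 and S100A2) and 5 were lower (S100A14, S100A6, S100A16, S100A11 and S100A10), beside 40.7% of all genes higher and 28.2% lower. In positive cells 4 were higher in SW1990 (S100A4, S100A9, S100A2 and S100P) and S100A6 was lower, beside 32.9% and 29.3% of all genes. These comparisons set cell lines of different origin side by side with 1 line of each kind, so they describe SW1990 and CFPAC-1 and no class of tumour. Values did not overlap between lines for all 9 members in negative cells, with 4 higher and 5 lower in SW1990, beside 43.8% and 31.4% of all genes. In positive cells they did not overlap for 4 higher and 1 lower, beside 33.9% and 30.0% of all genes. The median over all genes was 0.19 (log2, SW1990 minus CFPAC-1) in negative cells and 0.06 in positive cells.

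S100A4 differed most. Its mean was 557 ± 65.1 RPKM (SD, n = 3) in negative SW1990 cells against 6.30 ± 1.63 in negative CFPAC-1 cells, a ratio of 88.5. In positive cells it was 692 ± 46.9 RPKM against 5.51 ± 1.37, a ratio of 126. The log2 difference was 6.47 (SE 0.19, limma adjusted p = 1.04e-10) in negative and 6.97 (adjusted p = 6.78e-11) in positive cells. S100A4 stood at ranks 46 and 38 among all genes in SW1990 and at ranks 7996 and 8821 in CFPAC-1. The order of its 4 group means was positive SW1990, negative SW1990, negative CFPAC-1 and positive CFPAC-1, where the SW1990 groups did not pass the test and the CFPAC-1 groups overlapped.

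S100A6, also in the cluster, went the other way. It averaged 2126 ± 85.3 RPKM in negative and 1760.1 ± 362 RPKM in positive CFPAC-1 cells, against 702 ± 124 and 1033 ± 129 in SW1990 (SD, n = 3). CFPAC-1 had 3.03 times the level of SW1990 in negative cells (log2 difference, SW1990 minus CFPAC-1, of -1.61, limma adjusted p = 4.35e-06) and 1.70 times in positive cells (-0.76, adjusted p = 0.00220). The ratio of S100A6 to S100A4 in RPKM was 1.25 ± 0.0740 and 1.49 ± 0.0837 in negative and positive SW1990 cells. In CFPAC-1 it was 349 ± 67.7 and 322 ± 16.1.

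S100A9 averaged 6.02 ± 2.42 RPKM in negative SW1990 cells and 78.8 ± 30.6 in positive ones, and 0.621 ± 0.0815 and 1.52 ± 0.490 RPKM in those of CFPAC-1 (SD, n = 3). No group overlapped with another. The log2 difference between lines was 3.00 (limma adjusted p = 9.82e-06) in negative and 5.56 (adjusted p = 7.54e-08) in positive cells. S100A2 averaged 18.8 ± 3.03 and 34.6 ± 8.83 RPKM in SW1990 and 6.28 ± 0.713 and 5.66 ± 0.746 RPKM in CFPAC-1, with log2 differences of 1.56 (adjusted p = 1.42e-05) and 2.56 (adjusted p = 3.07e-07) by limma. S100P averaged 262 ± 16.4 and 293 ± 114 RPKM in SW1990 and 160.0 ± 47.1 and 103 ± 62.8 RPKM in CFPAC-1. Its difference was called in positive cells (1.59, limma adjusted p = 0.00320) and not in negative cells (0.76, interval -0.08 to 1.59, adjusted p = 0.0974), although the negative groups did not overlap. Without CFPAC-1 positive replicate 2, which alters the shared spread, the difference in negative cells passed (adjusted p = 0.0333).

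Like S100A6, the members S100A14, S100A16, S100A10 and S100A11 had their lowest mean in negative SW1990 cells. S100A14 averaged 5.95 ± 1.95 RPKM in negative SW1990 cells, against 133 ± 50.5 in positive SW1990, 163 ± 36.6 in negative CFPAC-1 and 129 ± 24.5 in positive CFPAC-1 cells (SD, n = 3). The log2 difference between lines was -4.79 (limma adjusted p = 6.87e-08) in negative cells and -0.02 (interval -0.71 to 0.66) in positive cells. The latter was 0.32 without SW1990 positive replicate 1 and 0.12 without CFPAC-1 positive replicate 2. S100A16 averaged 318 ± 23.5, 539.7 ± 33.7, 538 ± 28.9 and 543 ± 76.8 RPKM in the same order of groups, with log2 differences between lines of -0.76 (limma adjusted p = 7.53e-05) and -0.00 (interval -0.25 to 0.25).

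S100A10 averaged 312 ± 42.8, 497 ± 22.9, 394 ± 14.7 and 479 ± 6.54 RPKM in negative SW1990, positive SW1990, negative CFPAC-1 and positive CFPAC-1 cells (SD, n = 3). Its log2 difference between lines was -0.35 (limma adjusted p = 0.0102) in negative cells, and with quantile normalization it was -0.22 and missed the threshold (adjusted p = 0.0636). In positive cells it was 0.05 (interval -0.17 to 0.28). S100A11 averaged 573 ± 36.7, 967 ± 53.3, 910.4 ± 6.74 and 791 ± 193 RPKM, with a difference of -0.67 (limma adjusted p = 0.00134) in negative cells. In positive cells its difference of 0.32 (interval -0.00 to 0.63, adjusted p = 0.0779) was not called, but was called without CFPAC-1 positive replicate 3 (0.51, adjusted p = 0.00110) and with voom (adjusted p = 0.0393).

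**Figure D4:**
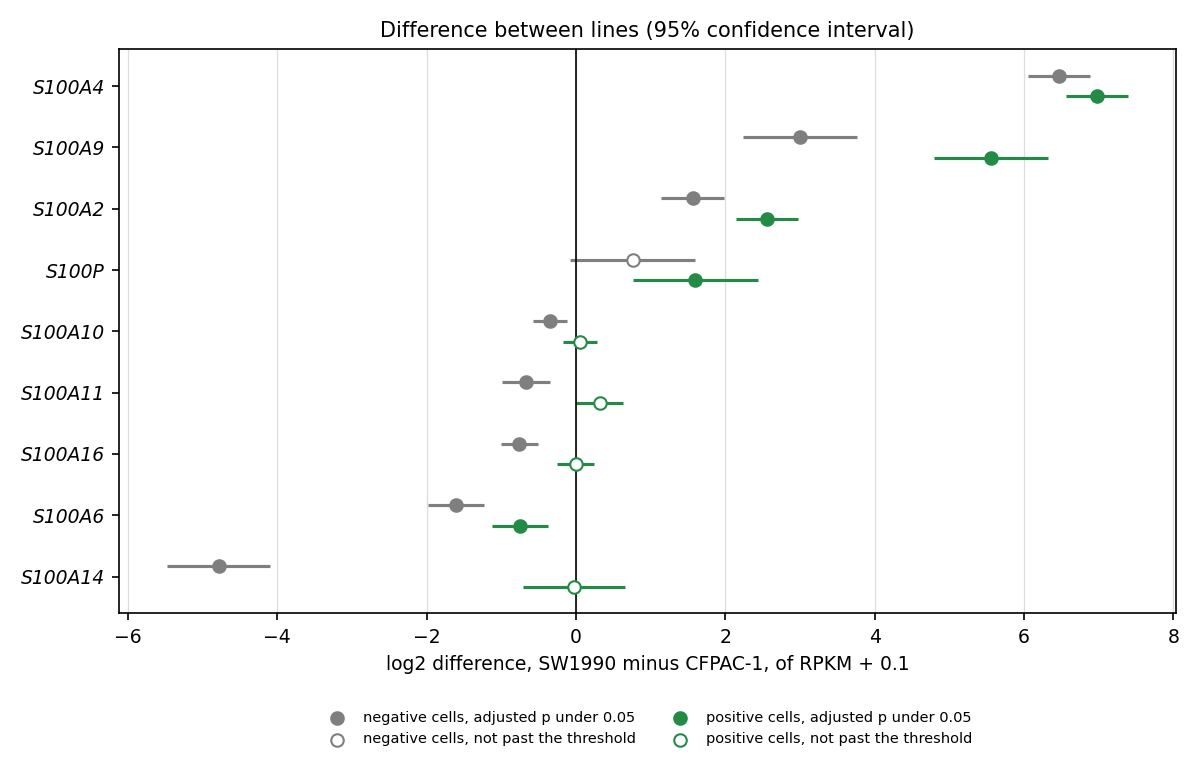
Log2 difference between lines, SW1990 minus CFPAC-1, on RPKM plus 0.1, in GCTM-5 negative (grey) and positive cells (green), with 95% confidence intervals from limma (n = 3 samples per group); filled points had an adjusted p under 0.05. S100A4 lay at 6.47 and 6.97, whereas S100A14 moved from -4.79 in negative to -0.02 in positive cells.

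Across the 12 samples, likeness of pattern was measured as the root mean square difference of log2 values, each gene centred on its own mean, among 13266 genes with a mean of at least 1 RPKM. Among the members themselves, S100A11 and S100A16 were nearest (0.16), followed by S100A10 and S100A16 (0.19). Outside the family, S100A14 was nearest to KLK6, a secreted serine protease (0.34), and RAB25, a small GTPase of epithelial cells (0.34). KLK6 averaged 9.53, 251, 269 and 279 RPKM and RAB25 4.75, 82.3, 139.5 and 107 RPKM in negative SW1990, positive SW1990, negative CFPAC-1 and positive CFPAC-1 cells. S100A9 was nearest to ALPPL2, a placental-type alkaline phosphatase (0.57), and LY6D, a surface protein of squamous cells (0.57). LY6D averaged 16.8, 219, 1.00 and 3.02 RPKM in the same groups.

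S100A4 was nearest to C3orf14 (0.34) and SLC1A3, a glutamate transporter (0.38), which were at or near 0 in CFPAC-1. The log2 gap of these nearest genes between lines therefore depended on the 0.1 added to RPKM, whereas S100A4 had 39 to 92 reads in CFPAC-1 samples. S100A6 was nearest to CYSTM1 (0.14) and C1orf198 (0.16), and S100A2 to DUSP10, a phosphatase of MAP kinases (0.26), and HOXB2, a homeobox factor (0.30). S100A10 was nearest to SH3KBP1 (0.11) and DYNLL2, a dynein light chain (0.11), S100A11 to ICAM2 (0.12) and LOC389641 (0.14), and S100A16 to CASP4, an inflammatory caspase (0.13), and MARK2, a polarity kinase (0.13). S100P was nearest to UNC5B, a netrin receptor (0.35), and TM7SF2, a sterol reductase (0.38). The 12 samples fall into 4 groups of shared origin, so these values describe likeness over 4 conditions and carry no test. S100A8 was at 0 in 9 of the 12 samples and its nearest genes, CTH and CLIC3 (0.40 each), had values above 0 in all groups.

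Of 11 further S100 genes in the table, 4 passed the filter on low values (S100A1, S100A3, S100A5 and S100A13). In SW1990 limma called 0 of them, beside 11.3% of all genes higher and 16.9% lower. S100A5 was at an unadjusted p under 0.05 (log2 difference 1.10, limma adjusted p = 0.0900), and voom called 0. S100A5 measured 1.71, 0.726 and 2.07 RPKM in negative and 2.18, 3.82 and 3.50 RPKM in positive SW1990 cells. In CFPAC-1 S100A3 alone was higher in positive cells (log2 change 0.95, limma adjusted p = 0.0125), beside 22.3% of all genes higher and 14.2% lower. It had 6 to 10 reads in negative and 12 to 20 reads in positive samples. The call was lost with voom and without CFPAC-1 negative replicate 3. Without CFPAC-1 positive replicate 3, S100A1 and S100A13 were called as well. S100A3 overlaps S100A4 on the same strand and S100A13 overlaps S100A1 on the opposite strand, so these values, and that of S100A4, are uncertain where the counting of shared positions is not known. S100A13 averaged 25.2 RPKM in negative SW1990 cells and 23.9 in positive ones, and 54.2 and 46.8 RPKM in those of CFPAC-1. S100A7A, S100A7L2 and S100A12, the last a relative of calprotectin in neutrophils, had 0 reads in all samples.

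The 16 listed partners and receptors of S100 proteins all passed the filter. In SW1990, 2 were higher in positive cells (ANXA11 and EZR) and 5 were lower (ANXA5, ANXA6, BSG, S100PBP and TLR4), beside 11.3% and 16.9% of all genes. In CFPAC-1, 2 were higher (ANXA5 and CACYBP) and 4 were lower (AGER, AHNAK, ANXA11 and PLAT), beside 22.3% and 14.2% of all genes. The calls of CFPAC-1 dropped from 6 to 3 (ANXA11, CACYBP and PLAT) without negative replicate 3. They dropped to 4 (these and AHNAK) without negative replicate 2. The median change over the list was 0.03 (log2) in SW1990, against -0.04 over all genes.

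Among the partners of the annexin-binding members, ANXA2 averaged 331 RPKM in negative SW1990 cells and 377 in positive ones, and 507 and 464 RPKM in those of CFPAC-1. It was not called in either sort (limma adjusted p = 0.142 and 0.270). The ratio of S100A10 to ANXA2 in RPKM was 0.939 ± 0.0676 (SD, n = 3) in negative and 1.32 ± 0.00812 in positive SW1990 cells. In CFPAC-1 it was 0.777 ± 0.0383 and 1.04 ± 0.0684. In both lines the ratio was higher in every positive sample than in any negative one. S100A10 by itself was also higher without overlap in both, as were 17.9% of all genes in SW1990 and 28.1% in CFPAC-1. PLAT, tissue plasminogen activator, which binds this complex at the cell surface, fell in CFPAC-1 from 568 RPKM in negative to 158 in positive cells (log2 change -2.02, limma adjusted p = 0.00113). In SW1990 it averaged 4.80 and 5.95 RPKM. AHNAK, a large scaffold bound by the complex, fell from 229 to 159 RPKM in CFPAC-1 (limma adjusted p = 0.0143).

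ANXA6 fell from 12.7 to 3.69 RPKM in SW1990 (log2 change -1.79, limma adjusted p = 0.000529). ANXA5 fell from 195 to 106 RPKM in SW1990 (limma adjusted p = 0.000661) and rose in CFPAC-1, from 76.6 to 103 RPKM (adjusted p = 0.0366). ANXA11 moved the opposite way, from 30.4 to 41.3 RPKM in SW1990 (limma adjusted p = 0.00377) and, in CFPAC-1, from 96.0 to 59.5 RPKM (adjusted p = 0.000241). The difference in change between lines passed the test for both ANXA5 (-1.29, limma adjusted p = 0.000709) and ANXA11 (1.14, adjusted p = 0.000105).

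EZR, the cytoskeletal linker ezrin that S100P binds, rose from 167 to 330 RPKM in SW1990 (log2 change 0.99, limma adjusted p = 1.63e-05) and averaged 428 and 430.2 RPKM in CFPAC-1. S100PBP, a nuclear protein that binds S100P, fell from 8.43 to 5.67 RPKM in SW1990 (limma adjusted p = 0.0165). CACYBP, which binds S100A6, rose from 14.3 to 29.8 RPKM in CFPAC-1 (log2 change 1.05, limma adjusted p = 0.000182). MYH9, the myosin heavy chain bound by S100A4, averaged 136, 121, 120 and 120.2 RPKM in negative SW1990, positive SW1990, negative CFPAC-1 and positive CFPAC-1 cells and was not called in either sort.

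Of the receptors for released calprotectin, TLR4 measured 1.80, 2.27 and 2.28 RPKM in negative and 0.0892, 0.143 and 0.117 RPKM in positive SW1990 cells. It fell by 3.36 on the log2 scale (limma adjusted p = 1.37e-06), in the populations between which S100A9 rose. In CFPAC-1 TLR4 measured 1.55, 1.60 and 1.35 RPKM in negative and 2.13, 1.53 and 3.23 RPKM in positive cells and was not called (limma adjusted p = 0.118). BSG, also called basigin, fell from 355 to 234 RPKM in SW1990 (limma adjusted p = 0.000178). AGER measured 6.75 to 13.5 RPKM in negative and 10.8 to 14.1 RPKM in positive cells of SW1990, where it was not called, and fell from 7.60 to 4.35 RPKM in CFPAC-1 (log2 change -0.83, limma adjusted p = 0.0251).

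**Figure D5:**
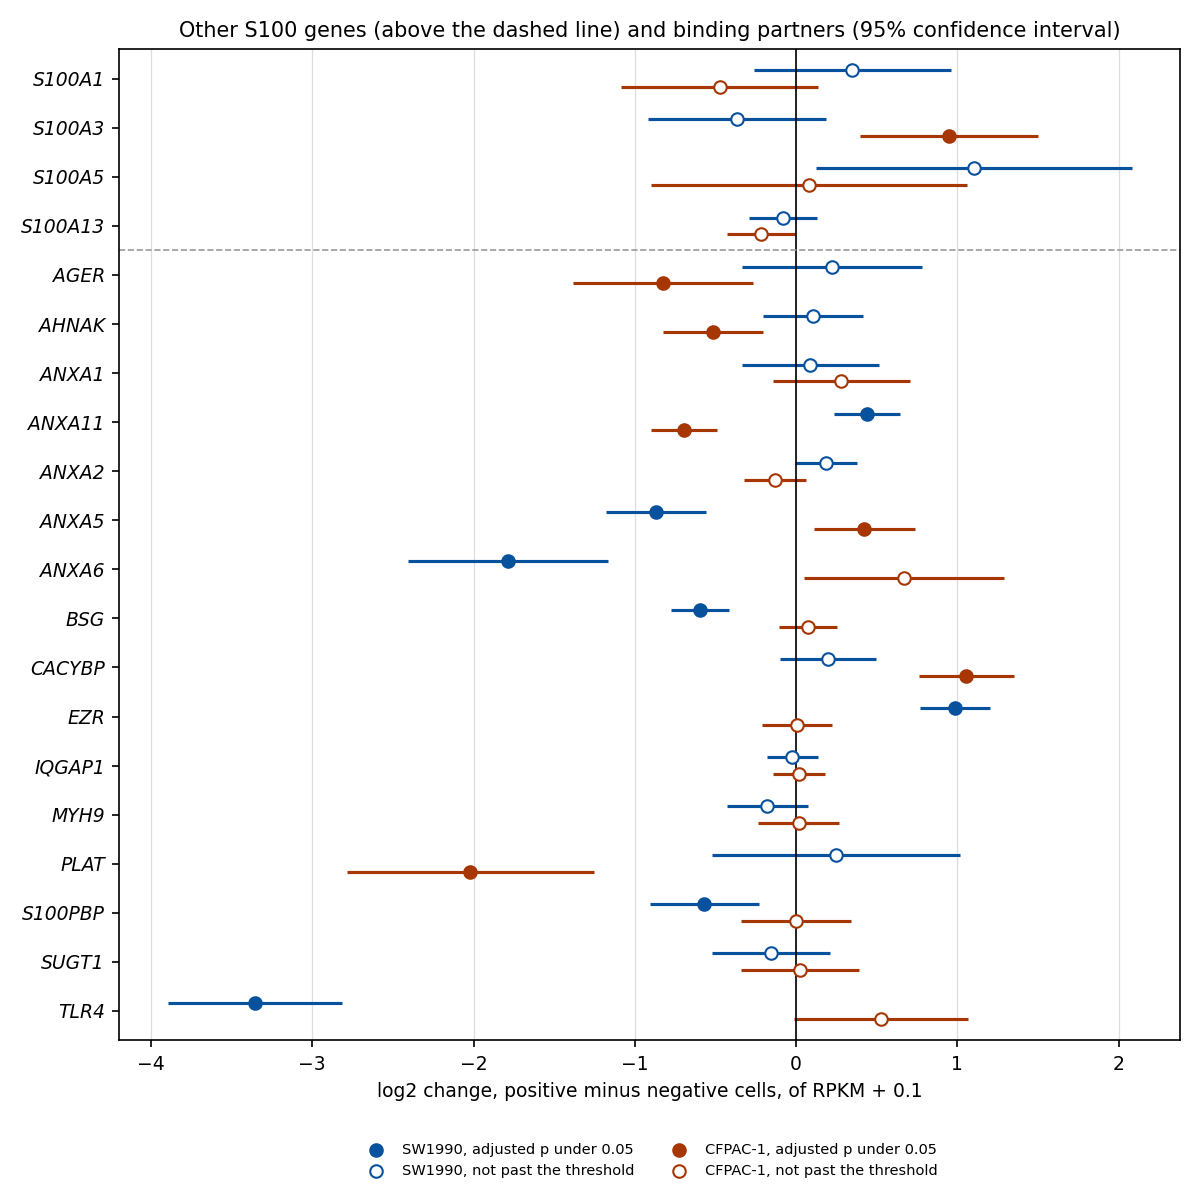
Log2 change from GCTM-5 negative to positive cells, on RPKM plus 0.1, for 4 further S100 genes (above the dashed line) and 16 partners and receptors in SW1990 (blue) and CFPAC-1 (brown), with 95% confidence intervals from limma (n = 3 samples per group); filled points had an adjusted p under 0.05. TLR4 in SW1990 lay lowest, at -3.36, and ANXA5 and ANXA11 lay on opposite sides of 0 in the 2 lines.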

How the data were processed

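RNA-seq of 12 samples, 3 in each of 4 groups set by cell line and GCTM-5 status, was analysed from 1 table of 23346 gene symbols. The deposited values are RPKM, which the authors made with QuasR after aligning reads to hg19 (GRCh37), dividing read counts by gene length and library size. The submitters' processing notes also name bcl2fastq. The annotation, the use of strand and the treatment of reads that match several places are not given in the sources used here. Library totals were recovered from the values by seeking those that make single-exon genes whole reads, which held for 42.0% to 47.0% of such genes in a sample. The length of each gene was then taken as the shortest that made its reads whole to within 0.01 of a read. Such a length was found for all 19654 genes above 0, so their wholeness was in part set by this choice. Recovered reads gave the reads behind a value, the floor of 3 reads and the voom alternative, and intervals and floors that rest on them cover counting error only.

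Genes with a mean of at least 0.1 RPKM (16236) were fitted as log2(RPKM + 0.1), with 4 group means, using limma 3.58.1 (moderated statistics with an intensity trend) under R 4.3.3, 2-sided, with Benjamini-Hochberg adjustment over all genes fitted. On this scale the fold change of low genes is understated, so the text also gives ratios of mean RPKM. The study used TCC, which was not used here, with over 2-fold and p under 0.01. An exact permutation test of 3 against 3 samples cannot give a p under 0.1 and was not used. On simulated data, 84% of 100 genes changed 2-fold and 100% of those changed 4-fold in SW1990 were called, with 0.062% of 16038 unchanged genes. For the difference between lines 34% and 98% were called. The simulation changed 200 of 16238 genes, whereas in the real SW1990 samples 11.3% of genes fitted were called higher and 16.9% lower. These rates therefore describe the simulated data only. The power and the rate of false calls in the real samples were not tested.

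The members and lists were chosen with earlier results of these data known. Genes named are all members, every further S100 gene and partner called in either sort, the 2 genes nearest to each member in pattern, FUT3 and the cell type markers. ANXA2, MYH9, S100A1, S100A5, S100A13 and the S100 genes at 0 were named outside this rule, with their values seen. Alternatives were pseudocounts of 1 and 0.01, no filter or a mean of at least 1 RPKM, median centring, quantile normalization, no trend, a replicate block, each pair of groups fitted alone, voom on recovered reads, the study's thresholds and the omission of 1 sample at a time (12 in all). The main fit did not pair samples by replicate number. Replicates of a group differed by more than sampling noise, and none was counted as a duplicate. Promoters are RefSeq's for GRCh38.p14, used for their sequence, and all 10 members matched by symbol. Tables and figures were made in Python 3.11.15 (pandas 2.3.3, numpy 2.4.6, matplotlib 3.10.9).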

Additional observations from a re-analysis of the deposited data

Results flagged for a closer look

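For 6 members the change from GCTM-5 negative to positive cells differed between SW1990 and CFPAC-1 in a test of the difference itself (limma, Benjamini-Hochberg adjusted p under 0.05). The change in SW1990 minus that in CFPAC-1, on the log2 scale, was 4.76 for S100A14, 2.56 for S100A9, 1.00 for S100A2, 0.99 for S100A11, 0.86 for S100A6 and 0.76 for S100A16. S100A14, S100A11, S100A2 and S100A6 also had opposite signs, at 4.43, 0.76, 0.85 and 0.56 in SW1990 and -0.33, -0.23, -0.15 and -0.29 in CFPAC-1, although these CFPAC-1 values did not pass the test. Of these 6, S100A9 alone was called in both lines, with a larger change in SW1990 (3.69) than in CFPAC-1 (1.14). Among all genes fitted, the change was called more positive in SW1990 for 9.16% and less positive for 17.8%. With voom the differences of S100A9 (adjusted p = 0.0751) and S100A2 (adjusted p = 0.0511) fell short. That of S100A6 no longer passed without SW1990 negative replicate 1, SW1990 positive replicate 2 or CFPAC-1 negative replicate 3.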

How the results depend on the processing

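Over 45 values of members and 963 alternatives, 905 kept direction and side of the threshold, 32 lost the call, 13 gained it and 13 changed sign. All 13 sign changes were of values that did not pass the test in either setting. In SW1990, S100P was -0.18 without positive replicate 2, in a range of -0.18 to 0.41 over the omitted samples. In CFPAC-1, S100A4 was 0.010 without negative replicate 3 (range -0.37 to 0.010), and S100A16 was -0.093 with median centring, -0.03 without negative replicate 3 and -0.11 without positive replicate 3 (range -0.11 to 0.081). Between lines in positive cells, S100A10 was -0.0016 with quantile normalization. S100A14 was there 0.019 with quantile normalization, 0.32 without SW1990 positive replicate 1 and 0.12 without CFPAC-1 positive replicate 2 (range -0.27 to 0.32). S100A16 was 0.0017 with voom, 0.02 and 0.03 without SW1990 positive replicates 1 and 3, and 0.11 without CFPAC-1 positive replicate 3 (range -0.076 to 0.11). The causes were not tested.

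The study's thresholds, which ask for over 2-fold, gave 2 members higher in positive SW1990 cells in place of 7, 1 in place of 2 in CFPAC-1, and 3 in place of 6 for the difference between lines. They gave 2 members lower in SW1990 in place of 5 in negative cells, 0 in place of 1 in positive cells, and 2 partners in either sort in place of 7 and 6. In CFPAC-1, members called higher were 0 with a pseudocount of 1 and 1 with no filter, median centring, no trend or voom. Further S100 genes called were 1 in place of 0 in SW1990 with a pseudocount of 1 or quantile normalization. In CFPAC-1 they were 2 in place of 1 with median centring or quantile normalization, and 0 when CFPAC-1 was fitted alone, with voom or at the study's thresholds.

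Leaving out 1 sample at a time gave 6 to 7 members higher and 0 lower in SW1990, 0 to 2 higher and 0 to 1 lower in CFPAC-1, and 5 to 7 higher and 0 lower for the difference. It gave 3 to 4 higher and 5 lower in negative cells, and 4 to 5 higher and 1 lower in positive cells. Further S100 genes called were 0 in SW1990 and 0 to 3 in CFPAC-1, and partners 6 to 7 and 3 to 7.

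Whether replicate numbers pair the samples was not settled. The deviations of same-numbered samples correlated at 0.18, 0.02 and 0.12 in SW1990 and at -0.02, 0.00 and -0.06 in CFPAC-1. Several samples correlated best with another number, while SW1990 positive replicates 1 and 3 correlated best with their own. With a replicate block, members called higher in CFPAC-1 were 1 in place of 2, with S100A10 at an adjusted p of 0.0661 by limma, and S100A4 was called in SW1990 (adjusted p = 0.0323) and for the difference (adjusted p = 0.0220).

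Median centring moved the median of all genes in the sorts from -0.04 to 0.01 in SW1990 and from 0.05 to -0.05 in CFPAC-1, from -0.15 to 0.00081 for the difference, and from 0.19 to 0.0060 between lines in negative cells. S100A8 was limited by depth in all groups, and S100A9 in CFPAC-1 rested on at most 18 reads a sample.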
